A study of Rattus norvegicus with 65 samples.

Results

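Complex I, or NADH:ubiquinone oxidoreductase, is the entry point of the respiratory chain. The genes described here are the rows of the count table whose rat symbol begins with Ndufa, Ndufab, Ndufaf, Ndufb, Ndufc, Ndufs or Ndufv, which gave 48 of the 14554 genes measured. They were read as 7 core genes, 27 accessory genes, 8 assembly genes (Ndufaf1 to Ndufaf8), the pair Ndufa4 and Ndufa4l2, and 4 copies or pseudogenes (Ndufb11b, Ndufa10l1, Ndufs5-ps2 and Ndufv3-ps1). Of the 48 genes, 45 reached 10 counts in each of the 65 libraries. The core subunits that the mitochondrial genome encodes have no row in the table and were not analysed here.

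The libraries were made from polyA RNA of primary neonatal rat cardiomyocytes, heart muscle cells of newborn rats kept in culture and deprived of serum overnight before treatment. The cells received 10 mM 5FU (5-fluorouracil) in 1% DMSO, 2.5 mM Ace (acetaminophen) in 0.25% DMSO or 1.25 μM Dox (doxorubicin) in 0.25% DMSO, and the controls received 1% DMSO (DMSO1) or 0.25% DMSO (DMSO2). Exposure lasted 6 or 24 hours, which gave 10 groups. There were 6 libraries each for 5FU and DMSO1 at both times and for Ace at 6 hours, and 7 each for Dox and DMSO2 at both times and for Ace at 24 hours. Because heart cells from more than 1 litter were combined into a shared preparation, the libraries are parallel cultures of it, and the p-values measure the spread between cultures and not between animals. The strain and sex of the rats were not used here.

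Complex I takes electrons from NADH and passes them along a chain of iron-sulfur clusters to ubiquinone, and it pumps protons across the inner mitochondrial membrane. The peripheral arm, which reaches into the matrix, holds the flavin and the clusters, and all core subunits encoded in the nucleus sit there. The accessory subunits surround both arms and are needed for assembly and stability, and the Ndufaf proteins help to build or modify the complex but are not part of it. Heart muscle is rich in mitochondria and depends on this chain for most of its ATP. Ndufa4 carries the family name but is now assigned to complex IV, and Ndufa4l2 is its relative.

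The windows around the annotated start sites of the genes that moved in opposite directions with Dox are shown first, because the groups below are told apart by that response. The RefSeq table of the assembly GRCr8 held a promoter window, 250 bases before to 50 bases after the start, for 41 of the 48 genes. Ndufs7 (chr7:10110449-10110748, minus strand) and Ndufs8 (chr1:210573649-210573948, minus strand) were the subunit genes that fell most with Dox at 24 hours. Ndufa7 (chr7:15311196-15311495, plus strand) and Ndufa12 (chr7:30658066-30658365, plus strand) were the subunit genes that rose most. The sequences run 5′ to 3′ on the strand of the gene, and capitals mark a match, on either strand, to the NRF1 motif GCGCNTGCG, the ETS motif CCGGAAG, the YY1 motif AAGATGGCG or the ERRA motif TCAAGGTCA.
Ndufs7: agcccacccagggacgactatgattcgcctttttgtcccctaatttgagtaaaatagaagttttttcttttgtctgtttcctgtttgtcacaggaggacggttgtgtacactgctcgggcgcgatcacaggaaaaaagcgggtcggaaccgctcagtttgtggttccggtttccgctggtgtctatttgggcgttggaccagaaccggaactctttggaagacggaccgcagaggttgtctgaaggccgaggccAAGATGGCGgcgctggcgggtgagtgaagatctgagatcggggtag
Ndufs8: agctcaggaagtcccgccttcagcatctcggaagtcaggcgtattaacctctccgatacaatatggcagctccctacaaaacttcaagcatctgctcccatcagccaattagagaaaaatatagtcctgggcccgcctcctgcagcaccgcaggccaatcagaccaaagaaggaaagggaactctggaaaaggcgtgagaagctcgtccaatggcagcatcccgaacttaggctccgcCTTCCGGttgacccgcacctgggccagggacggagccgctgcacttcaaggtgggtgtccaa
Ndufa12: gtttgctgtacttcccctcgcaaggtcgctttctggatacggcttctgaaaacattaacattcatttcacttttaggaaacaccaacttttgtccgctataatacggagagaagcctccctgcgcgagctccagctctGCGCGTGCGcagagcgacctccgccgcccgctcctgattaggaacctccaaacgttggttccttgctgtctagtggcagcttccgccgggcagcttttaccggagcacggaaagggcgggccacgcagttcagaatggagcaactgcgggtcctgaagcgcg
Ndufa7: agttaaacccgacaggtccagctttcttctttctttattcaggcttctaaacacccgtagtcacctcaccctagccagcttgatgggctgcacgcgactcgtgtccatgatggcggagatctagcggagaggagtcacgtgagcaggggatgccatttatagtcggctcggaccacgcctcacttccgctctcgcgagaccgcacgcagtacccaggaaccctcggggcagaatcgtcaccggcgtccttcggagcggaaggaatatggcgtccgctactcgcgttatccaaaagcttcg
Ndufs7 held a YY1 match, Ndufs8 an ETS match and Ndufa12 an NRF1 match, and Ndufa7 had none of these letters in its window.

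The YY1 letters were in 8 of the 41 windows (19.5%), compared with 1.93% of all 27457 windows in the table, with 1 window taken for each gene, and 3.36% of the 11403 windows of genes with counts. The NRF1 letters were in 9 windows (22.0%, compared with 6.34% and 12%), and the ETS letters were in 8 (19.5%, compared with 9.22% and 16.0%). The ERRA letters were in none of the 41 windows and in 0.412% of all windows. Among the core and accessory genes, YY1 letters were in 3 of the 11 windows of genes that fell, 1 of the 7 of genes that rose and 3 of the 13 of genes that were not called. These are descriptions of letters in a window, without a test, and say nothing of binding.

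Library totals ran from 14332827 to 25738297 counts and TMM scaling factors from 0.859 to 1.07. Levels are given as CPM, the count scaled to a fixed library total, after TMM scaling, as lowest, median and highest library of a group. They compare a gene with itself across groups and not with other genes, since no transcript length was applied. Each comparison was fitted with edgeR's quasi-likelihood test in a model of all 10 groups, with the Benjamini-Hochberg adjustment over all 14554 genes, and a gene was called at an FDR below 0.01. Log2 fold changes are given with their standard error. For 20 of the members, the annotation names copies elsewhere in the genome, among them Ndufv2, Ndufv3, Ndufb10 and Ndufaf4. Reads could therefore have been shared out between a gene and its copies.

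The core and accessory genes had their highest mean level with 5FU or Dox at 6 hours, and the core and assembly genes their lowest with Dox at 24 hours. The mean log2 CPM of the 7 core genes was 8.35 ± 0.18 (SD, n = 6) with 5FU and 8.30 ± 0.09 (n = 7) with Dox at 6 hours, compared with 8.08 ± 0.07 (n = 6) in DMSO1 and 8.12 ± 0.10 (n = 7) in DMSO2. At 24 hours it was 7.01 ± 0.09 (n = 7) with Dox, and the other 4 groups lay between 7.78 and 7.95. The 7 Dox libraries ran from 6.89 to 7.19, below every other library at either time. The mean of the 27 accessory genes was 7.71 ± 0.18 with 5FU and 7.71 ± 0.10 with Dox at 6 hours. In the controls at 6 hours it was 7.36 ± 0.08 in DMSO1 and 7.36 ± 0.17 in DMSO2. With Dox at 24 hours it was 7.12 ± 0.10, compared with 7.20 ± 0.10 in DMSO2. The mean of the 8 assembly genes was 4.65 ± 0.10 in DMSO2 at 6 hours, 4.21 ± 0.12 in DMSO2 at 24 hours, and 3.64 ± 0.07 with Dox at 24 hours.

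**Figure D1:**
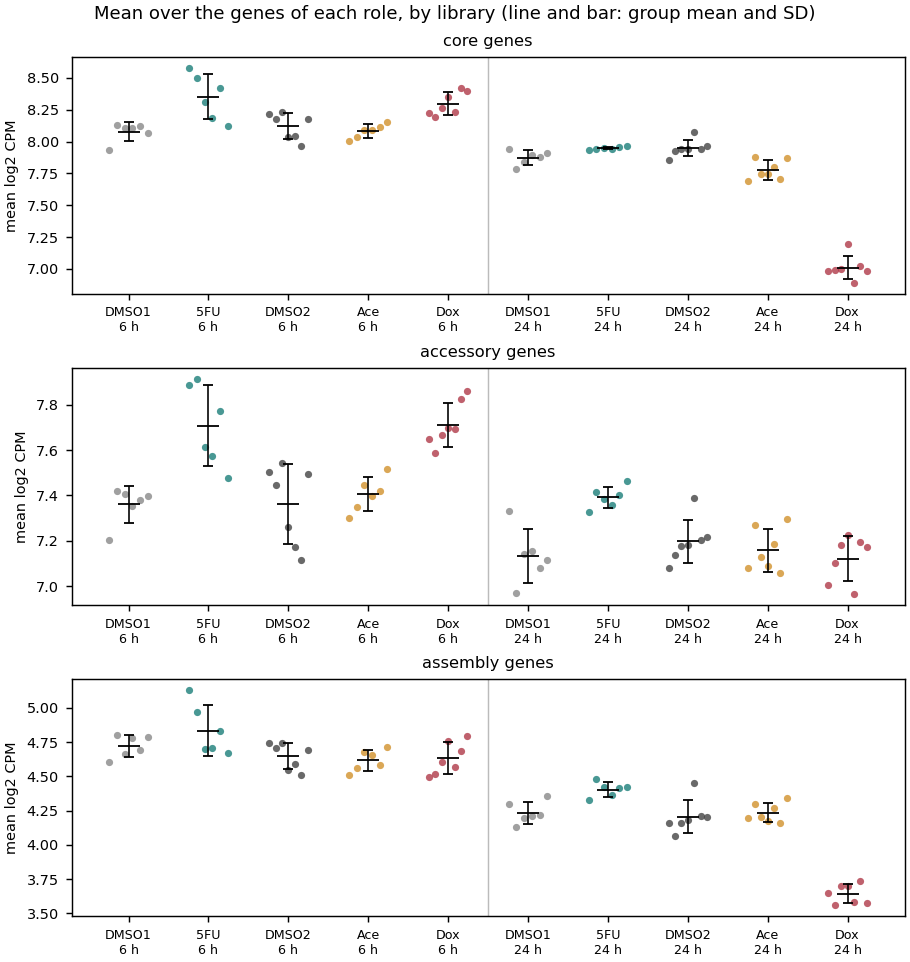
Mean log2 CPM over the 7 core, 27 accessory and 8 assembly genes in each of the 65 libraries, by group; points are libraries and the line and bar are the group mean and SD. The 7 libraries of Dox at 24 hours lie apart from the others for core genes (6.89 to 7.19) and assembly genes, but not for accessory genes.

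5FU at 6 hours was followed by a small rise of nearly all subunit genes. All 27 accessory genes rose, by 0.27 to 0.42 on the log2 scale (median 0.34), and 6 of the 7 core genes rose (median 0.28). Across the 48 genes 39 were higher and 1 was lower, compared with 23.4% higher and 24.5% lower of all genes tested, whose median was 0.00. Of the 8 assembly genes 3 were higher (Ndufaf8, Ndufaf1 and Ndufaf3), with a median of 0.15, and the difference between the roles was not tested. The interquartile range of the accessory genes was 0.04, and the medians of the genes of the peripheral and membrane arms were 0.33 and 0.34.

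Ndufv1, which binds the flavin and NADH, ranged from 391 to 437 CPM (median 409) in DMSO1 and from 490 to 623 CPM (median 551) with 5FU at 6 hours. Every 5FU library lay above every control library, and the log2 fold change was 0.42 ± 0.05 (FDR = 2.56e-11), the highest of the core genes. Ndufs3, a subunit of the ubiquinone-reducing module, was not called, with a log2 fold change of 0.18 ± 0.07 (FDR = 0.0158).

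The accessory genes with the highest values were Ndufa12 (0.42 ± 0.07), Ndufs6 (0.40 ± 0.07) and Ndufc1 (0.39 ± 0.09), and those with the lowest were Ndufa10 (0.27 ± 0.05), Ndufa7 (0.32 ± 0.08) and Ndufs4 (0.32 ± 0.07). For Ndufa12 the DMSO1 libraries ran from 182 to 225 CPM (median 202) and the 5FU libraries from 238 to 314 CPM (median 271). In 15 of the 27 accessory genes and 3 of the 7 core genes every 5FU library lay above every control library, which was true of 13.8% of all genes. The 5FU libraries were themselves spread out at 6 hours. Their mean log2 CPM over the accessory genes ran from 7.48 to 7.91, and libraries 1, 2 and 5 were the highest for core, accessory and assembly genes alike. Library 1 also had the lowest TMM factor of all, 0.859. Leaving out a library of the comparison at a time gave 35 to 40 genes higher. Without TMM factors, 26 accessory and 4 core genes were still called higher.

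With Dox at 6 hours all 27 accessory genes rose (median 0.36, from 0.21 to 0.54) and 5 of the 7 core genes rose (median 0.19), while Ndufs7 and Ndufs8 were not called (0.01 ± 0.06 and 0.12 ± 0.07). Of the 48 genes 35 were higher and 1 lower, beside 31.5% and 32.7% of all genes (64.2% together). The DMSO2 libraries were spread out at 6 hours. Their mean log2 CPM over the accessory genes ran from 7.11 to 7.54, and libraries 4, 5 and 6 were the lowest. The Dox libraries ran from 7.59 to 7.86. Leaving out a library of the comparison at a time gave 32 to 36 genes higher. With 5FU and Dox at 6 hours, which have separate control libraries, 34 genes were higher in both, of 39 and 35. The share of all genes that were higher in both was not counted. Under library size alone the median of all genes moved by -0.15, all 27 accessory genes stayed above 0 with 17 called higher, and only 2 core genes were called.

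Ndufa7, an accessory subunit of the peripheral arm, ran from 94.8 to 141 CPM (median 132) in DMSO2 and from 161 to 191 CPM (median 178) with Dox at 6 hours. Its log2 fold change, 0.54 ± 0.07 (FDR = 3.48e-09), was the highest of the subunits, followed by Ndufb9 (0.50 ± 0.08) and Ndufc1 (0.44 ± 0.09). The lowest values were those of Ndufa9 (0.21 ± 0.06), Ndufa8 (0.22 ± 0.06) and Ndufs4 (0.23 ± 0.07). For 15 of the 27 accessory genes every Dox library was above every control library, as for 19.7% of all genes. Ndufaf4 alone was lower. It works early in assembly, on the module that reduces ubiquinone, and it ran from 42.4 to 48.7 CPM (median 44.2) in DMSO2 and from 21.3 to 30.1 CPM (median 23.2) with Dox. All Dox libraries were below all control libraries, as for 22.9% of all genes, at -0.89 ± 0.08 (FDR = 4.70e-15). The assembly genes had a median of 0.08, and besides Ndufaf4, Ndufaf8, the partner of Ndufaf5, was called (0.43 ± 0.10, higher). These calls depend on the scaling: DESeq2 size factors gave 3 assembly genes higher and 1 lower, and library size alone gave 1 higher and 3 lower, with a median of -0.08.

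**Figure D2:**
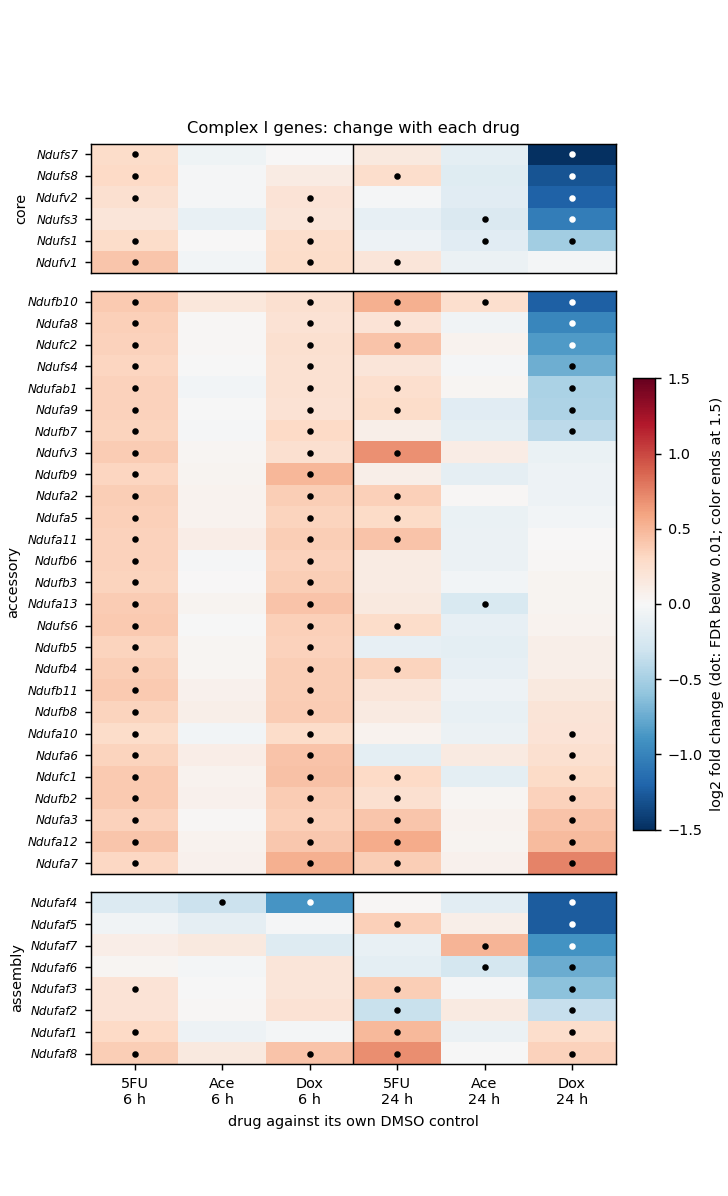
Log2 fold change of 41 core, accessory and assembly genes (rows, sorted within each role by Dox at 24 hours) in the 6 comparisons of a drug with its DMSO control, by time (columns). Red is higher and blue lower, a dot marks an FDR below 0.01, and the color scale ends at 1.5 in either direction. The 5FU and Dox columns at 6 hours are red for all 27 accessory genes, and the Dox column at 24 hours is blue with a dot for 5 of the 6 core genes plotted.

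After 24 hours of Dox the complex I genes no longer moved together. Of the 7 core genes 6 fell (median -1.04), of the 8 assembly genes 6 fell and 2 rose (median -0.68), and of the 27 accessory genes 7 fell, 7 rose and 13 were not called (median 0.04). Over the 48 genes 11 were higher and 19 lower, compared with 40.4% and 41% of all genes (81.4% together), so the total of calls was no larger than in the rest of the table and the direction differed by role. All 6 core genes that fell had every Dox library below every control library, which held for 34.6% of all genes.

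The fall was deepest for Ndufs7, which carries the last iron-sulfur cluster before ubiquinone. Ndufs7 (Entrez ID 362837) ran from 136 to 157 CPM (median 149) in DMSO2 and from 47.3 to 58.2 CPM (median 47.8) with Dox. The groups were far apart, with a log2 fold change of -1.58 ± 0.07 (fold 0.335, FDR = 3.61e-32). Ndufs8, which holds the clusters before it in the chain, ran from 105 to 132 CPM (median 116) in DMSO2 and from 43.4 to 59.0 CPM (median 45.0) with Dox, at -1.30 ± 0.08 (FDR = 2.23e-24). The highest Dox library for both genes was library 4, and it was still below the lowest control library.

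Ndufv2, a cluster protein beside the flavin site, ran from 228 to 294 CPM (median 256) in DMSO2 and from 96.7 to 122 CPM (median 109) with Dox, at -1.21 ± 0.07 (FDR = 6.55e-24). Ndufs3 changed by -1.04 ± 0.06 and Ndufs1, the large cluster subunit, by -0.53 ± 0.04. Ndufv1 was the only core gene that did not fall. It ran from 410 to 456 CPM (median 437) in DMSO2 and from 396 to 483 CPM (median 419) with Dox, and the groups overlapped (-0.03 ± 0.04, FDR = 0.524, 95% interval -0.12 to 0.06). The interval of Ndufs1, the core gene that fell least, was -0.61 to -0.45 and did not reach that of Ndufv1. Among the accessory genes, Ndufv3, which also sits at the flavin site, was not called either (-0.10).

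**Figure D3:**
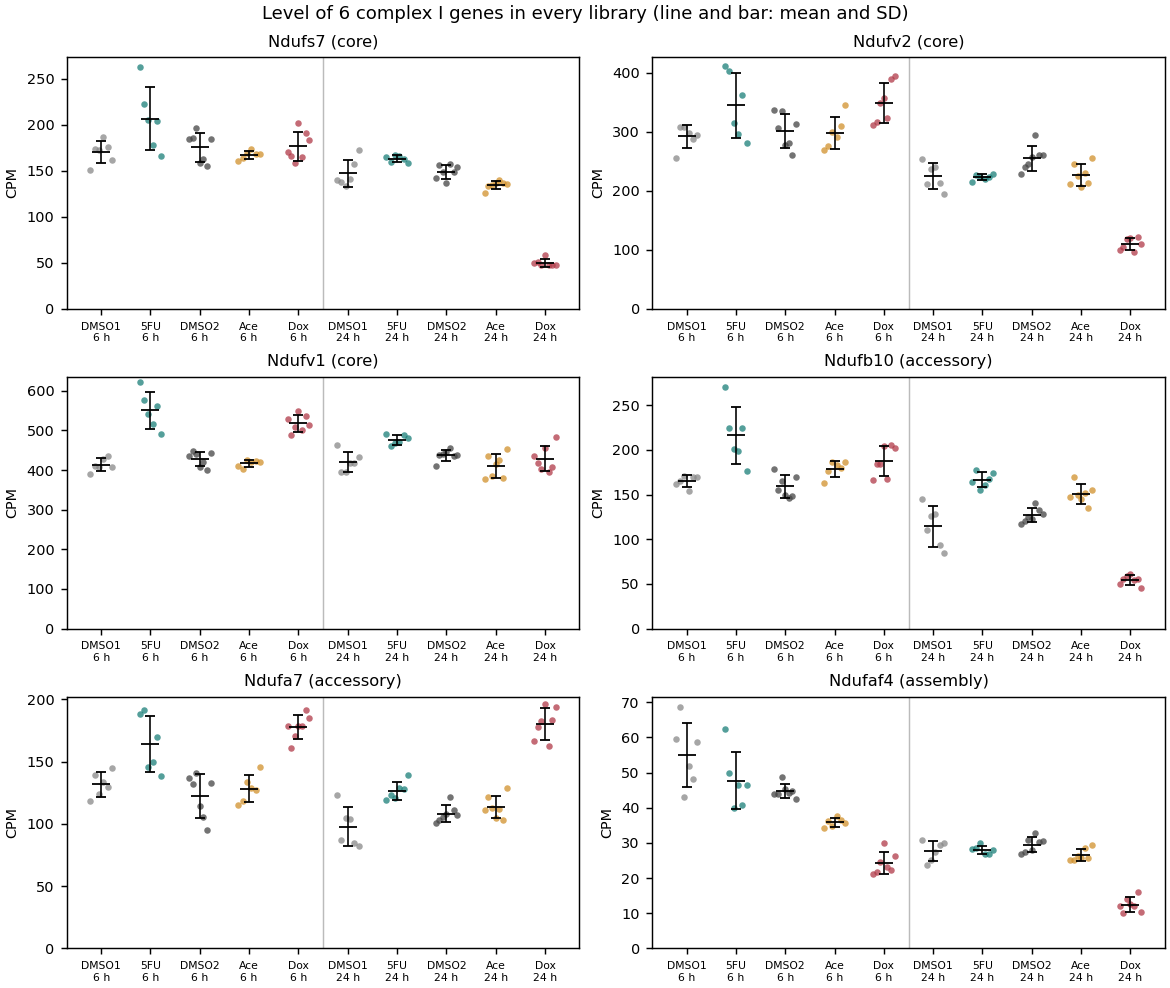
CPM of Ndufs7, Ndufv2, Ndufv1 (core), Ndufb10, Ndufa7 (accessory) and Ndufaf4 (assembly) in every library of the 10 groups; points are libraries, and the line and bar are the mean and SD. Ndufs7, Ndufv2, Ndufb10 and Ndufaf4 are lowest in Dox at 24 hours, Ndufv1 overlaps its control there, and Ndufa7 is highest in the Dox groups.

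Of the accessory genes 25.9% fell and 25.9% rose, both below the shares of all genes (41% and 40.4%). Members that fell and members that rose were found in both arms. Ndufb10, of the membrane arm, ran from 117 to 140 CPM (median 125) in DMSO2 and from 45.9 to 61.0 CPM (median 55.2) with Dox, at -1.22 ± 0.08 (FDR = 6.61e-23). Ndufa8 (-0.98 ± 0.06) and Ndufc2 (-0.85 ± 0.07), both of the membrane arm, followed. Then came Ndufs4, an accessory subunit near the flavin site (-0.73 ± 0.07), Ndufab1, the mitochondrial acyl carrier protein (-0.47 ± 0.06), Ndufa9 (-0.46 ± 0.06) and Ndufb7 (-0.39 ± 0.08). In all 7 of these genes every Dox library was below every control library, as for 34.6% of all genes. On the other side, Ndufa7 ran from 101 to 121 CPM (median 107) in DMSO2 and from 163 to 197 CPM (median 182) with Dox, at 0.74 ± 0.07 (FDR = 5.37e-14).

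Ndufa12, which takes the place of Ndufaf2 late in assembly, ran from 148 to 186 CPM (median 163) in DMSO2 and from 205 to 241 CPM (median 231) with Dox, at 0.47 ± 0.06. Ndufa3 (0.42 ± 0.07), Ndufb2 (0.35 ± 0.07), Ndufc1 (0.28 ± 0.09), Ndufa6 (0.24 ± 0.07) and Ndufa10 (0.21 ± 0.04) also rose, each by less than Ndufa7. Of these accessory genes Ndufs4, Ndufab1, Ndufa9, Ndufb7, Ndufb2, Ndufc1, Ndufa6 and Ndufa10 were named after their values were seen. The 13 accessory genes that were not called included all other Ndufb genes. Counted by position, 8 of the 16 peripheral arm genes fell and 3 rose (median -0.28), and 4 of the 17 membrane arm genes fell and 4 rose (median 0.04). Of all genes 41% fell and 40.4% rose, and the difference between the arms was not tested. The core genes account for 6 of the 8 peripheral arm genes that fell.

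Of the assembly genes, those with the lowest values with Dox at 24 hours were Ndufaf4, Ndufaf5 and Ndufaf7. Ndufaf5 hydroxylates Ndufs7, and it ran from 14.9 to 19.4 CPM (median 15.6) in DMSO2 and from 5.45 to 8.08 CPM (median 7.02) with Dox, at -1.25 ± 0.08 (FDR = 3.67e-22). Ndufaf7, an arginine methyltransferase of early assembly, ran from 17.5 to 22.8 CPM (median 18.2) and from 8.72 to 12.1 CPM (median 10.2), at -0.90 ± 0.08 (FDR = 3.64e-15). For both genes every Dox library was below every DMSO2 library, as for 34.6% of all genes. Ndufaf4 ran from 26.8 to 32.8 CPM (median 30.1) in DMSO2 and from 9.91 to 15.9 CPM (median 12.1) with Dox (-1.25 ± 0.09, FDR = 1.08e-20).

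Ndufaf6 (-0.75 ± 0.08), Ndufaf3, which acts together with Ndufaf4 (-0.62 ± 0.07), and Ndufaf2 (-0.35 ± 0.10) fell as well, the last with overlapping libraries. Ndufaf8 (0.34 ± 0.10) and Ndufaf1 (0.26 ± 0.06) rose, also with overlapping libraries. Of 14 further assembly genes outside the Ndufaf family, 12 were in the table, and 7 of these were lower and 3 higher with Dox at 24 hours (median -0.75), beside 41% and 40.4% of all genes. Timmdc1, which works on the membrane arm, fell the most: it changed by -1.97 ± 0.07, Dmac1 by -1.71 ± 0.08 and Tmem70 by -1.28 ± 0.06. Acad9, which joins Ndufaf1 in the same assembly complex, rose by 0.89 ± 0.04, and Tmem126b, of that complex too, by 0.36 ± 0.08. Ecsit, another partner in that complex, was lower by -0.93 ± 0.06.

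Genes of complexes II to V and of the mitochondrial ribosome are given beside these as counts only. With Dox at 24 hours 13 of 42 genes of complexes II to V were higher and 17 lower (median 0.00), and 16 of 71 mitochondrial ribosomal protein genes were higher and 40 lower (median -0.37), beside 40.4% higher and 41% lower of all genes. At 6 hours 41 of the 42 were higher with Dox (median 0.36, beside 31.5% of all genes) and 39 with 5FU (median 0.37, beside 23.4%), close to the medians of the accessory genes of complex I (0.36 and 0.34). The mitochondrial ribosomal protein genes had medians of 0.15 and 0.19 there.

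The change of the Dox effect between the time points was tested as an interaction. All 7 core genes, 18 of 27 accessory genes and 6 of 8 assembly genes had a lower Dox effect at 24 than at 6 hours, 31 of 48 in all, beside 30.8% of all genes, and Ndufaf1 had a higher one (0.29 ± 0.08), beside 34%. The median differences were -1.22 for core, -0.33 for accessory and -0.64 for assembly genes. For Ndufs7 the difference was -1.58 ± 0.09. Of the 35 genes that were higher at 6 hours, 10 were higher, 11 lower and 14 not called at 24 hours. Of all genes 40.4% were higher and 41% lower with Dox at 24 hours. The shares among all genes that were higher at 6 hours were not counted. Among the genes called at both times Ndufaf4 was the only member already lower at 6 hours. Without TMM factors 18 genes had a lower and 4 a higher effect, and the median of all genes was then 0.27, in place of 0.07.

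**Figure D4:**
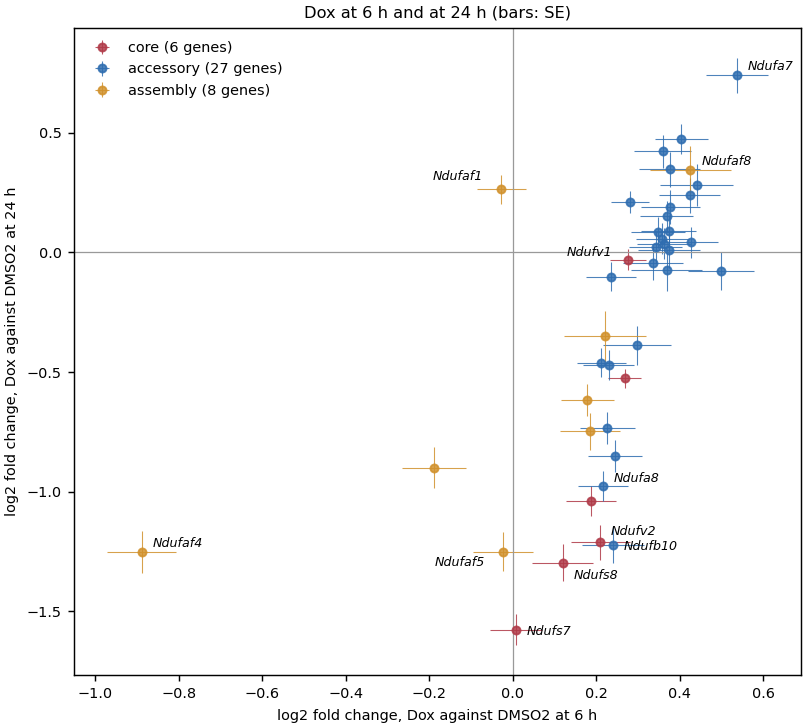
Log2 fold change with Dox at 6 hours (horizontal) and 24 hours (vertical) for 6 core, 27 accessory and 8 assembly genes; bars are SE. The accessory genes lie between 0.21 and 0.54 at 6 hours and spread from -1.22 to 0.74 at 24 hours, and 5 of the core genes plotted lie at -0.53 or below at 24 hours.

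5FU at 24 hours kept part of the early rise. Of the 27 accessory genes 16 were higher and none lower (median 0.26), of the core genes only Ndufs8 (0.26 ± 0.08) and Ndufv1 (0.18 ± 0.05) were higher, and of the assembly genes 4 were higher and 1 lower. In all, 24 genes were higher, beside 28% of all genes, and 1 was lower, beside 27.8% (55.8% called in either direction). Every 5FU library lay above every control library for 13 members (22.3% of all genes) and below for 1, Ndufa4l2 (20.6%), which was not called. Ndufv3, which sits at the flavin site, ran from 103 to 150 CPM (median 133) in DMSO1 and from 196 to 220 CPM (median 207) with 5FU, without overlap (0.68 ± 0.07, FDR = 5.41e-14). Its rise was larger than at 6 hours by 0.30 ± 0.09 (FDR = 0.00456 for the interaction). The annotation names 2 copies of Ndufv3, and the row of its pseudogene Ndufv3-ps1 moved the other way. That row changed by 1.32 with 5FU at 6 hours and -0.85 at 24 hours. Its interaction was -2.17 and was called lower. How reads were shared between the gene and its copies was not tested.

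Ndufaf8 ran from 15.9 to 24.4 CPM (median 18.8) in DMSO1 and from 28.5 to 34.7 CPM (median 30.5) with 5FU at 24 hours, at 0.69 ± 0.11 (FDR = 7.72e-08). Ndufaf1 (0.48 ± 0.06), Ndufaf3 (0.37 ± 0.07) and Ndufaf5 (0.36 ± 0.08) also rose. Ndufb10, which fell with Dox, rose with 5FU, from 84.7 to 145 CPM (median 118) in DMSO1 to 155 to 177 CPM (median 166), at 0.54 ± 0.08, and Ndufa12 rose by 0.56 ± 0.07. The accessory genes called with the lowest values were Ndufa8 (0.21 ± 0.07), Ndufb2 (0.24 ± 0.08) and Ndufab1 (0.26 ± 0.07). Ndufaf2 was lower by -0.34 ± 0.11 (FDR = 0.00755), with overlapping libraries, and it lost the call when any of 10 of the 12 libraries was left out.

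Between the times, 8 members had a lower 5FU effect at 24 hours and 3 a higher one, beside 19.2% and 20.3% of all genes. The lower ones included the core genes Ndufs1 (-0.35 ± 0.06), Ndufs3 (-0.30 ± 0.09) and Ndufv1 (-0.23 ± 0.07) and the accessory genes Ndufa6 (-0.48 ± 0.11) and Ndufb5 (-0.46 ± 0.10). Besides Ndufv3 and the pseudogene-like Ndufb11b, Ndufaf5 had a higher effect (0.41 ± 0.11). Of the 24 genes higher with 5FU at 24 hours, 9 were higher and 8 lower with Dox at the same time, beside 40.4% and 41% of all genes. The shares among all genes that were higher with 5FU were not counted.

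Ace moved few of these genes. At 6 hours Ndufaf4 was the only member called (-0.32 ± 0.08, FDR = 0.0012), with 34.2 to 37.6 CPM (median 35.8) compared with 42.4 to 48.7 CPM (median 44.2) in DMSO2. All Ace libraries were below the controls, as for 12.1% of all genes. None was higher, beside 16.5% higher and 15.2% lower of all genes (31.7% together). An unadjusted p under 0.05 was found for 3 members, beside 7145 of all 14554 genes. At 24 hours 2 members were higher and 5 lower, beside 18.2% and 19.1% (37.2% together). Of the core genes 3 were lower, among them Ndufs3 (-0.21 ± 0.06) and Ndufs1 (-0.17 ± 0.04). All 7 core genes had negative values (median -0.17) and an unadjusted p under 0.05. Of all 14554 genes 7768 had such a p, in either direction.

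With Ace at 24 hours Ndufa13, an accessory subunit of the membrane arm, was lower (-0.23 ± 0.06), and Ndufb10 was higher (0.25 ± 0.07). Ndufaf7 ran from 17.5 to 22.8 CPM (median 18.2) in DMSO2 and from 25.2 to 28.7 CPM (median 27.3) with Ace (0.51 ± 0.08, FDR = 1.52e-07). Every Ace library was higher than every control library, as for 13.2% of all genes. Ndufaf6 was lower (-0.26 ± 0.07, FDR = 0.00235). Some of these calls change with single libraries: Ndufs3 lost its call without DMSO2 library 5 (and under library size alone), Ndufaf6 without that library or Ace library 1, and Ndufb10 without Ace library 2 or DMSO2 library 1 or 2. Ace and Dox were compared with the same DMSO2 libraries, so their values for a gene are not independent. At 24 hours Ndufaf7 was at 0.51 with Ace and -0.90 with Dox, and Ndufb10 at 0.25 and -1.22. The interaction of Ace with time called no member (edgeR), beside 5.58% higher and 6.06% lower of all genes. Its unadjusted p was under 0.05 for 6 members, beside 4721 of all 14554 genes.

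The controls changed with time in culture. From 6 to 24 hours, over both DMSO groups, 30 of the 48 genes fell and 1 rose, beside 31.9% and 32.7% of all genes. All 8 assembly genes fell (median -0.45), led by Ndufaf4 (-0.80 ± 0.06), as did 5 of 7 core genes (median -0.22) and 16 of 27 accessory genes (median -0.19). Ndufs1 and Ndufv1 were among the genes with no call (0.01 ± 0.03 and 0.03 ± 0.03). The gene that rose was the pseudogene Ndufv3-ps1 (1.33 ± 0.30).

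The amount of DMSO made little difference to these genes. At 6 hours Ndufaf4 (0.30 ± 0.08, FDR = 0.00413) and Ndufaf6 (0.29 ± 0.07, FDR = 0.00259) were higher in DMSO1 than in DMSO2, 2 of 48 members beside 9.87% of all genes, and none was lower, beside 6.6%. Both calls rested on overlapping groups, and of all genes 2.4% had every DMSO1 library above and 2.67% every one below, and leaving out library 2 of DMSO1 removed them. At 24 hours no member was called by edgeR, beside 0.137% higher and 0.295% lower of all genes. The unadjusted p was under 0.05 for 5 members, beside 2370 of all 14554 genes.

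The remaining members were Ndufa4, Ndufa4l2 and the copies. Ndufa4 rose at 6 hours (0.45 ± 0.07 with 5FU, 0.42 ± 0.06 with Dox) and stayed higher at 24 hours (0.39 ± 0.07 and 0.40 ± 0.06). Ndufa4l2 had few counts, from 22 to 366 per library, and wide errors, so that 0.70 ± 0.35 with 5FU and 0.73 ± 0.32 with Dox at 6 hours were not called. Leaving out library 4 of DMSO1 at 6 hours raised its value with 5FU to 1.22 and gave a call, and leaving out library 1 of 5FU gave -0.02. Ndufs5-ps2 rose in the same 4 comparisons as Ndufa4, by 0.31 to 0.44. Ndufb11b and Ndufa10l1 (0 to 14 counts) had means under 10 counts per library. The 1 lower call with 5FU at 6 hours was Ndufb11b (-1.72 ± 0.41), with 2 to 10 counts in the 5FU libraries and 9 to 22 in DMSO1.

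A list of 8 regulators of respiratory genes is given for comparison. Ppargc1a, a coactivator that drives the making of mitochondria, changed by -1.72 ± 0.07 with Dox and by -1.08 ± 0.08 with 5FU at 6 hours, when the accessory genes rose. With Dox at 24 hours it changed by -2.18 ± 0.07 and its relative Ppargc1b by -1.94 ± 0.12. Nrf1, the factor that binds the NRF1 motif, was at -1.88 ± 0.06 with Dox at 6 hours and -0.45 ± 0.05 at 24 hours. Gabpa, of the ETS family, was at -0.37 ± 0.05 and -0.28 ± 0.05. Yy1 was at -0.13 ± 0.04 at 6 hours and rose by 0.73 ± 0.04 at 24 hours, and Tfam, which is needed for the mitochondrial genome, rose by 0.48 ± 0.05. Of the 8 regulators 2 rose and 5 fell with Dox at 24 hours, when 81.4% of all genes were called. With Dox at 6 hours 1 rose and 6 fell, beside 31.5% and 32.7% of all genes. With 5FU at 6 hours none rose and 2 fell (median 0.09), beside 23.4% and 24.5%.

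Cell type markers moved with Dox as well. In the DMSO2 libraries at 24 hours the 10 cardiomyocyte markers summed to 42283 to 55488 CPM, and with Dox to 12010 to 16519 CPM, with 9 of 10 lower. The 8 fibroblast markers were all lower (1917 to 4064 CPM, compared with 15099 to 18894), and so were the 5 endothelial markers. Of the 6 macrophage markers 5 were lower and 1 higher, and 3 of 4 smooth muscle markers were higher. Of all genes 41% were lower and 40.4% higher. With 5FU at 24 hours the cardiomyocyte markers summed to 25893 to 27970 CPM, compared with 38584 to 47180 in DMSO1, with 6 of 10 lower and 1 higher. All 8 fibroblast markers (median -1.38), 3 of 5 endothelial markers and 1 of 6 macrophage markers were lower. Of the 4 smooth muscle markers 2 were higher and 2 lower, and of all genes 28% were higher and 27.8% lower. With Ace at 24 hours all 8 fibroblast markers were lower as well (median -1.26), beside 19.1% of all genes. So were 3 of 5 endothelial, 4 of 6 macrophage and 2 of 4 smooth muscle markers. Of the 10 cardiomyocyte markers 3 were lower and 1 higher. With Dox at 6 hours, all 5 endothelial and 6 of 8 fibroblast markers were lower and all 4 smooth muscle markers higher. Of the 10 cardiomyocyte markers 3 were higher and 4 lower, and of the 6 macrophage markers 3 were higher and 1 lower. Of all genes 31.5% were higher and 32.7% lower. In bulk RNA, fewer cells of a type and less RNA per cell cannot be told apart. The part of these shifts in the values of the complex I genes was not tested.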

How the data were processed

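PolyA RNA of 65 cultures in 10 groups was sequenced. The deposited values are estimated counts: the authors quantified reads with kallisto against a rat Ensembl transcriptome, used tximport to sum them to Entrez genes and left out those with few counts, and the values were deposited as whole numbers. From these counts, edgeR 4.0.16 (R 4.3.3, limma 3.58.1) gave TMM-scaled CPM and quasi-likelihood tests in a model of all 10 groups, with Benjamini-Hochberg adjustment over 14554 genes and calls at an FDR below 0.01. The SE is the log2 fold change divided by the square root of F. The procedure was tested on simulated data. Library totals, 14332827 to 25738297, set the counting precision. Symbols came from the RefSeq table of GRCr8, which gave 14009 genes a symbol. Its coordinates are used only for the promoter windows. Of 105 symbols there that meet the naming rule, 57 have no row here, 47 of them pseudogenes, and were not analysed. No pair of replicate libraries agreed within sampling noise (lowest chi-square per gene 2.98 over 180 pairs).

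The members and gene lists were chosen with earlier results of these data known. A core gene that enters the fits, counts and medians is not reported here. Genes named are the other core genes, all Ndufaf genes, Ndufa4, Ndufa4l2, members averaging under 10 counts, and, per drug comparison, the called accessory genes with the 3 highest and 3 lowest values. Alternatives were DESeq2 1.42.0 (size factors, Wald test), library size only, other filters, an FDR of 0.1, fits of the compared groups only, and leaving out each library.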

Additional observations from a re-analysis of the deposited data

Results flagged for a closer look

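The effect of a drug differed between 6 and 24 hours, by an interaction test, for 3 members upward and 8 downward with 5FU, and for 1 upward and 31 downward with Dox. With 5FU these were 6.25% and 16.7% of the members, both below the shares of all genes (20.3% and 19.2%). With Dox they were 2.08% and 64.6% of the members, beside 34% and 30.8% of all genes.

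Single libraries stood apart from the rest of their group in 16 of 240 groups of values examined, and chance gives about 1 in 20. Library 1 of DMSO1 at 6 hours was lowest for the mean log2 CPM of core genes (7.937) and accessory genes (7.202), and for Ndufs3 (149.2 CPM) and Ndufs8 (132.4 CPM). Library 5 of DMSO2 at 24 hours was highest for the mean log2 CPM of assembly genes (4.455), and for Ndufa4 (517.4 CPM), Ndufaf5 (19.39 CPM), Ndufaf7 (22.79 CPM) and Ndufc2 (128 CPM). Library 4 of Dox at 24 hours was highest for Ndufa8 (80.28 CPM), Ndufs1 (324.2 CPM), Ndufs7 (58.24 CPM) and Ndufs8 (59.02 CPM). Library 7 of Dox at 24 hours was highest for Ndufaf2 (7.344 CPM), library 7 of Ace at 24 hours for Ndufaf6 (15.28 CPM), and library 1 of DMSO2 at 24 hours was lowest for Ndufv1 (409.9 CPM).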

How the results depend on the processing

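With DESeq2 size factors, and in a fit without a filter, each count of calls over the 48 members was within 1.5 times of the reported count. By role, DESeq2 size factors gave 3 assembly genes higher with Dox at 6 hours in place of 1. With library size only, the counts became 2 lower for 5FU at 6 hours, 4 higher for Ace at 24 hours, 22 higher and 3 lower for Dox at 6 hours, 0 higher for DMSO1 against DMSO2 at 6 hours, 5 lower for the 5FU interaction, 1 higher for the Ace interaction, and 4 higher and 18 lower for the Dox interaction. At an FDR of 0.1 they were 2 lower (5FU, 6 hours), 4 lower (5FU, 24 hours), 2 higher (Ace, 6 hours), 12 lower (Ace, 24 hours), 2 lower (Dox, 6 hours), 5 higher and 17 lower (5FU interaction), 1 higher and 3 lower (Ace interaction) and 2 higher (Dox interaction). Fits of the compared groups only gave 2 lower (5FU, 24 hours), 1 higher (DMSO1 against DMSO2, 6 hours), 1 higher and 4 lower (5FU interaction) and 1 higher and 1 lower (Ace interaction). filterByExpr gave 0 lower for 5FU at 24 hours, and the DESeq2 Wald test 1 lower for the Ace interaction. The cause was not tested.

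Leaving out 1 library at a time gave 1 to 2 lower for 5FU at 6 hours, 0 to 2 lower for 5FU at 24 hours, 1 to 3 higher and 3 to 6 lower for Ace at 24 hours, 1 to 2 lower for Dox at 6 hours, 0 to 2 higher for DMSO1 against DMSO2 at 6 hours, 5 to 11 lower for the 5FU interaction, and 0 to 1 higher and 0 to 1 lower for the Ace interaction. The count of 19 lower with Dox at 24 hours did not change. No paired analysis was possible because the columns carry no replicate numbers.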
